A study of Mus musculus with 14 samples.

Results

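The genes described here are the FOXO transcription factor genes Foxo1, Foxo3 and Foxo4 together with 7 target genes that PI3K signalling restrains, namely Insr, Irs2, Pik3ip1, Bcl6, Ccng2, Pdk4 and Sesn3. The genes were chosen by name, with earlier results of these data known, so their shares beside those of all genes are descriptive. All 10 were found once each among the 55291 symbols of the count table. All 10 also passed the filter on low counts and were among the 17933 genes tested. Total RNA came from lung tumor nodules, snap-frozen, of C57BL/6 mice. All 5 groups had the HER2 Exon20YVMA genotype, an exon 20 insertion that lengthens the kinase domain of the receptor. The resistant nodules (n = 3) had acquired resistance while on mobocertinib alone, the combination nodules (n = 3) had received mobocertinib and T-DM1, and the T-DM1 (n = 3) and mobocertinib (n = 3) nodules had received a single drug. Vehicle nodules (n = 2) had received no drug. Mobocertinib (TAK-788) inhibits the kinase of EGFR and HER2 with insertions in exon 20. T-DM1 is trastuzumab, an antibody to HER2, linked to a microtubule poison. Vehicle and drugs were given long term, and the labels give no dose, duration, age or sex, nor the promoter that drives the HER2 allele. Nor do they say whether the libraries of a group stem from different mice, so the p-values reflect the spread among these libraries alone, which may in part be technical.

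FOXO proteins are forkhead transcription factors that bind DNA in the nucleus and switch on genes for cell cycle arrest, stress resistance, fasting metabolism and feedback to growth factor receptors. When a receptor tyrosine kinase activates PI3K, the kinase AKT phosphorylates FOXO proteins, 14-3-3 proteins then hold them in the cytoplasm, and their targets are read less. RNA counts record the transcripts of these genes and not the phosphorylation or the location of the FOXO proteins. Several targets act back on the same pathway: Insr encodes the insulin receptor, Irs2 its adaptor, and Pik3ip1 a membrane protein that inhibits PI3K.

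All 10 are protein-coding genes, and on the mm10 build the factors lie on chromosome 3 (Foxo1, 52268336 to 52353221), chromosome 10 (Foxo3, 42181841 to 42276755) and chromosome X (Foxo4, 101254528 to 101260873). Insr (3122061 to 3279617) and Irs2 (10984681 to 11008458) are both on chromosome 8, and Pik3ip1 is on chromosome 11 (3330401 to 3342971). Bcl6 is on chromosome 16 (23965052 to 23988852), Ccng2 on chromosome 5 (93267257 to 93276231), Pdk4 on chromosome 6 (5483351 to 5496309) and Sesn3 on chromosome 9 (14275067 to 14333101). Foxo1 shares 7.78% of its exon bases with another gene, the antisense Gm20402, and Irs2 shares 2.56%, Pik3ip1 2.13% and Bcl6 0.313% with genes on the opposite strand. Without a stated strand setting, the reads of such overlaps cannot be told apart.

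Promoter windows of RefSeq (GRCm38.p6), from 250 bases before to 50 bases after the transcript start, were matched for 8 of the 10 genes. Insr and Foxo4 were not matched. Windows of 3 targets are printed because they differ in matches to the core of the FOXO binding motif and in how the genes behaved in the nodules. Capitals mark AAACA, or TGTTT where the match is on the opposite strand. The Ccng2 window (chr5:93267323-93267622, plus strand), the Irs2 window (chr8:11008880-11009179, minus strand) and the Pdk4 window (chr6:5496229-5496528, minus strand) read as follows, 5′ to 3′.
Ccng2: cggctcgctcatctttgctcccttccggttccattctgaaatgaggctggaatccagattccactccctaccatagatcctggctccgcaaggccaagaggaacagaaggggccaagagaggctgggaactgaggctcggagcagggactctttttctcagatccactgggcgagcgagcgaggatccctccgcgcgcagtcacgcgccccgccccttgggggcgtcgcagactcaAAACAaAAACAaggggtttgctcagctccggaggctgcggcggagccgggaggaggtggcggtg
Irs2: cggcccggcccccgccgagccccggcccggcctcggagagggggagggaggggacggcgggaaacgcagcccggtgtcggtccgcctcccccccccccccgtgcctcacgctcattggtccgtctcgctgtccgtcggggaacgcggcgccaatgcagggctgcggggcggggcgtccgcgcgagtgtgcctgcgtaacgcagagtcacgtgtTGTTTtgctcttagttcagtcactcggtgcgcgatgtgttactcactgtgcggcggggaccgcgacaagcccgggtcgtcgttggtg
Pdk4: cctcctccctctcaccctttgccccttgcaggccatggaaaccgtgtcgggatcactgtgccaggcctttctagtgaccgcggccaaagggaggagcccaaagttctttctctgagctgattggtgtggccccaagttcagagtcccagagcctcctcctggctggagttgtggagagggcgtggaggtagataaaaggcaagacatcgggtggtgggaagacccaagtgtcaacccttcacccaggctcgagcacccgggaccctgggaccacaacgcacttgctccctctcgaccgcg

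The Ccng2 window held 2 matches to AAACA, starting 14 and 8 bases before the RefSeq transcript start. The Irs2 window held 1 match on the opposite strand, starting 37 bases before the RefSeq start. RefSeq starts differ from the gene limits given above: the Ccng2 window lies wholly within those limits, and the Irs2 window wholly upstream of them. The Pdk4 window held none. Over both strands, AAACA was found in 5 of the 9 windows, since Bcl6 has 2 windows, against 50.5% of all 32851 RefSeq windows of this length. The longer motif GTAAACA, which contains AAACA, was found in 0 of the 9 windows, against 3.65% of all windows. A match is a description of letters in these windows only.

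Library totals were 19.3 to 31.3 M counts. Levels are given in CPM, the counts scaled to library size with trimmed-mean (TMM) factors. These factors were 0.677 and 0.542 in the vehicle libraries and 0.988 to 1.231 in the others, and a lower factor gives a higher CPM for the same count and total. In composition, both vehicle libraries differed from the 12 others. Coding genes with transcripts under 1000 bases took 6.78% to 11.9% of the counts in the other libraries, against 25.6% and 30.9% in vehicle, and those over 5000 bases took 12.6% to 20.1%, against 6.13% and 4.51%. The epithelial marker Epcam was found in all libraries (168 to 435 CPM in the other groups, 290 to 294 CPM in vehicle), as was Nkx2-1, which marks lung epithelium (75.2 to 224 CPM in the other groups, 81.8 to 115 CPM in vehicle). Markers of macrophages, 8 in number, summed to 501 to 3735 CPM in the other groups and 8745 to 9353 CPM in vehicle, and 12 endothelial markers summed to 746 to 1802 CPM and 380 to 475 CPM. Chil3 made up most of the macrophage sum in vehicle, with 7391 to 8669 CPM there and means of 590 to 1816 CPM in the other groups. Cd68, Itgax, Mrc1, Siglecf and Marco also had their highest mean in vehicle. Csf1r had its lowest mean there (34.7 CPM against 63.2 to 90.6 CPM), and Adgre1 was similar (23.0 CPM against 19.5 to 25.5 CPM). The surfactant gene Sftpc had 2871 to 46310 CPM in the other groups and 116700 to 185900 CPM in vehicle. In bulk nodules, a change in the share of a cell type and a change of RNA within cells cannot be told apart, and this holds for all results below. The differing shares of short and long transcripts coincide with the vehicle group. In comparisons with vehicle, treatment therefore cannot be told apart from a difference in RNA quality or library preparation, and neither was tested.

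All 3 factors had lower levels in both vehicle libraries than in any other library. Libraries of a group are listed in the order of their numbers, so that vehicle 1 is the first vehicle value. Foxo1 had 68.1, 73.2 and 73.5 CPM in the resistant nodules, 56.4, 44.7 and 51.7 CPM in the combination, 52.2, 50.1 and 46.4 CPM under T-DM1, 46.0, 50.5 and 51.9 CPM under mobocertinib, and 22.5 and 12.3 CPM under vehicle. The 3 resistant libraries were above every other library, the 9 libraries of the 3 drug groups overlapped, and both vehicle libraries were below all others. Foxo3 had 180.5, 179.2 and 255.8 CPM in the resistant nodules, 176.6, 111.1 and 143.8 CPM in the combination, 121.0, 90.8 and 128.2 CPM under T-DM1, 152.1, 119.0 and 158.4 CPM under mobocertinib, and 32.2 and 39.8 CPM under vehicle. Again the resistant libraries were the highest, though by a narrow margin over the first combination library.

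Foxo4 was arranged differently, with the T-DM1 nodules below the other treated groups. It had 78.0, 47.8 and 70.2 CPM in the resistant nodules, 51.9, 59.97 and 50.4 CPM in the combination, 28.1, 23.8 and 37.4 CPM under T-DM1, 53.4, 60.6 and 71.5 CPM under mobocertinib, and 13.9 and 20.4 CPM under vehicle. The highest T-DM1 library was below the lowest library of the resistant, combination and mobocertinib groups, and the lowest T-DM1 library was above both vehicle libraries.

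**Figure D1:**
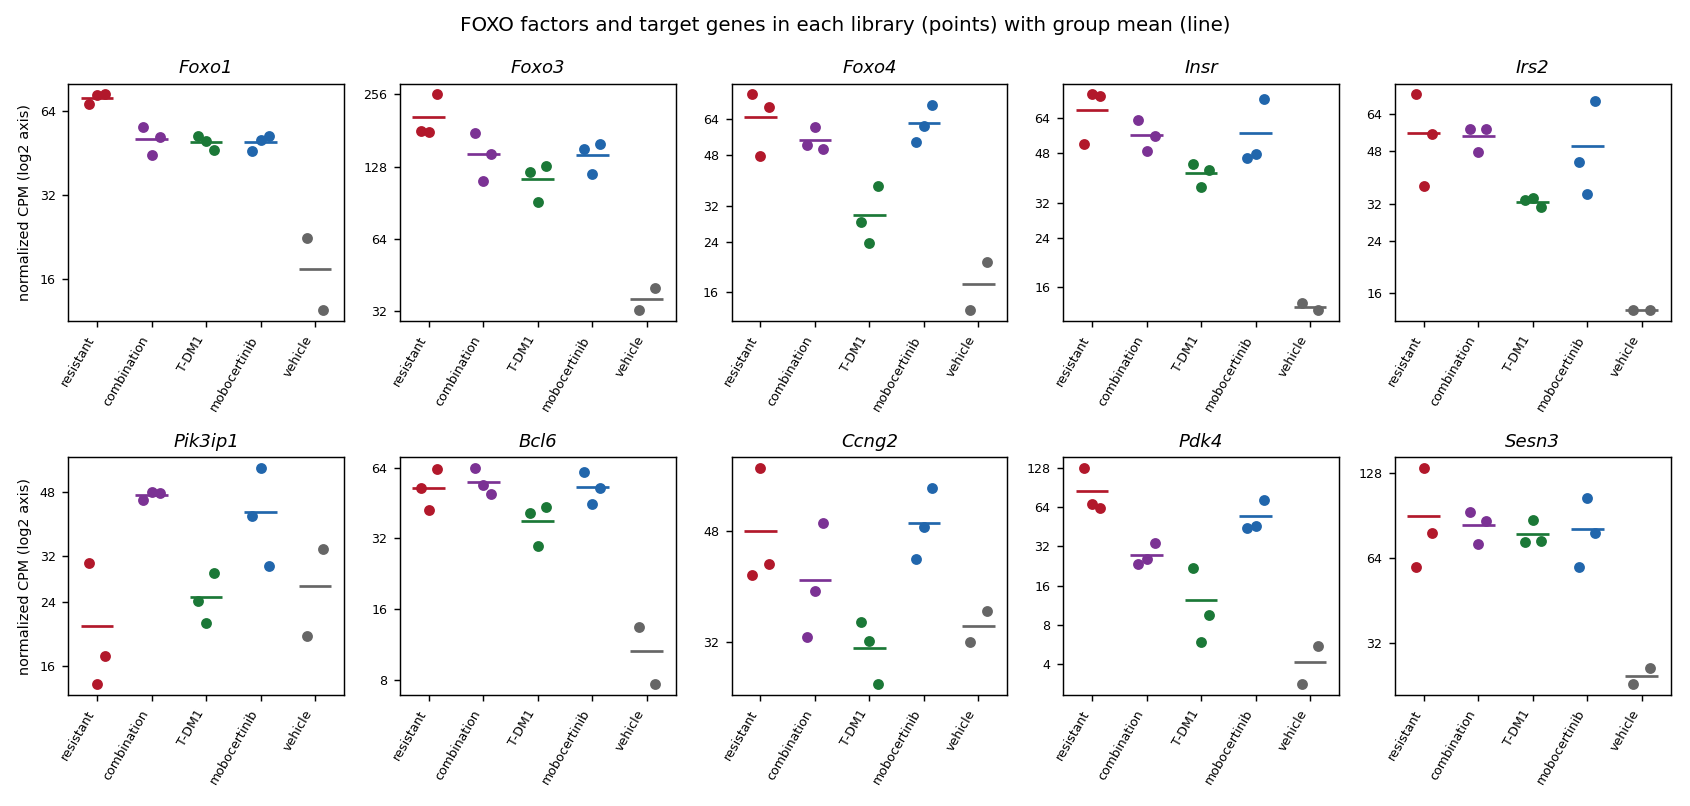
Normalized CPM (log2 axis) of the 10 genes in each library (points), by group, with the group mean as a line. Vehicle libraries are the lowest for 8 genes, T-DM1 libraries stand below mobocertinib for Foxo4 and Pdk4, and Pik3ip1 and Ccng2 overlap with vehicle in at least 1 group.

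Among the genes of insulin signalling, Insr had 51.7, 77.6 and 76.4 CPM in the resistant nodules, 63.0, 48.8 and 55.3 CPM in the combination, 43.8, 36.4 and 41.7 CPM under T-DM1, 46.3, 47.8 and 75.1 CPM under mobocertinib, and 13.99 and 13.2 CPM under vehicle. The vehicle libraries were close to each other and below all 12 others, and the T-DM1 libraries were the next lowest. Irs2 had 74.6, 36.6 and 54.9 CPM in the resistant nodules, 57.0, 47.8 and 57.2 CPM in the combination, 32.9, 33.3 and 31.1 CPM under T-DM1, 44.0, 34.5 and 71.0 CPM under mobocertinib, and 13.99 and 14.04 CPM under vehicle. The resistant and mobocertinib libraries varied about 2.04-fold and 2.06-fold within their groups, whereas the T-DM1 libraries lay within 1.07-fold of each other.

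Pik3ip1, the PI3K inhibitor, did not follow that order. It had 30.6, 14.3 and 17.1 CPM in the resistant nodules, 45.5, 48.0 and 47.5 CPM in the combination, 24.2, 21.1 and 28.8 CPM under T-DM1, 41.3, 55.6 and 30.0 CPM under mobocertinib, and 19.4 and 33.6 CPM under vehicle. The resistant, T-DM1 and mobocertinib libraries overlapped with vehicle, the combination libraries were above it, and the 3 resistant libraries were all below the 3 combination libraries. It was the only one of the 10 genes with its lowest group mean in the resistant nodules.

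Bcl6 encodes a transcriptional repressor and Ccng2 an atypical cyclin that accompanies cell cycle arrest. Bcl6 had 52.4, 42.3 and 62.9 CPM in the resistant nodules, 63.7, 53.8 and 49.5 CPM in the combination, 40.8, 29.6 and 43.4 CPM under T-DM1, 61.1, 44.9 and 52.6 CPM under mobocertinib, and 13.4 and 7.65 CPM under vehicle. All 12 libraries of the other groups were above both vehicle libraries, by at least 2.2-fold over the higher one. Ccng2 had 40.9, 60.4 and 42.5 CPM in the resistant nodules, 32.5, 38.5 and 49.4 CPM in the combination, 34.4, 32.0 and 27.4 CPM under T-DM1, 43.3, 48.8 and 56.1 CPM under mobocertinib, and 32.0 and 35.8 CPM under vehicle. The combination and T-DM1 libraries overlapped with vehicle, and the resistant and mobocertinib libraries were above it.

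Pdk4, a kinase that shuts down pyruvate dehydrogenase in fasting, had the widest range of the 10 genes. It had 127, 67.2 and 62.9 CPM in the resistant nodules, 23.5, 25.8 and 33.9 CPM in the combination, 22.0, 5.95 and 9.59 CPM under T-DM1, 44.3, 46.0 and 73.0 CPM under mobocertinib, and 2.82 and 5.57 CPM under vehicle. Its highest library was 21.4 times its lowest among the 12 libraries other than vehicle, where the other 9 genes spanned 1.65-fold (Foxo1) to 3.89-fold (Pik3ip1). The combination libraries were above all T-DM1 libraries and below all mobocertinib libraries, and the lowest T-DM1 library was barely above vehicle. Sesn3, a sestrin that restrains mTORC1, had 59.1, 133 and 78.2 CPM in the resistant nodules, 92.6, 71.5 and 86.3 CPM in the combination, 72.4, 86.6 and 73.0 CPM under T-DM1, 59.5, 104 and 78.2 CPM under mobocertinib, and 22.8 and 26.0 CPM under vehicle. All 4 groups other than vehicle overlapped with each other.

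Against vehicle, 8 of the 10 genes rose in every group, namely the 3 FOXO factors, Insr, Irs2, Bcl6, Pdk4 and Sesn3. None fell, and Pik3ip1 and Ccng2 passed in no group. These counts stand beside 22% of all tested genes called higher in the resistant nodules, 17.6% in the combination, 16.7% under T-DM1 and 16.8% under mobocertinib, and 19%, 17.4%, 14.9% and 16.1% called lower (edgeR quasi-likelihood test, Benjamini-Hochberg adjusted p below 0.05). All libraries were above both vehicle libraries for 9 of the 10 genes in the resistant nodules (28.8% of all genes), 9 in the combination (33.3%), 8 under T-DM1 (32.2%) and 9 under mobocertinib (31.1%). The median log2 fold change of the 10 genes was 2.01, 1.86, 1.54 and 1.84 in these groups, against 0.18, 0.08, 0.18 and 0.09 over all tested genes. The 4 comparisons share the 2 vehicle libraries, so their results are not independent of each other.

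The largest change was that of Pdk4. In the resistant nodules it averaged 85.8 ± 36.0 CPM against 4.197 ± 1.95 CPM in vehicle (SD, n = 3 and 2), a log2 fold change of 4.36 ± 0.614 (SE, edgeR adjusted p = 0.000225). It rose by 3.70 ± 0.594 under mobocertinib and by 2.73 ± 0.567 in the combination. Under T-DM1 it rose by 1.58 ± 0.541 (adjusted p = 0.0416), a call that was lost without vehicle 1 or 2 or without T-DM1 1 or 3.

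Foxo3, which averaged 205 ± 43.8 CPM in the resistant nodules against 36.0 ± 5.37 CPM in vehicle, rose by 2.51 ± 0.296 there (adjusted p = 8.83e-05). Its log2 fold change was 1.998 ± 0.289 in the combination, 1.65 ± 0.284 under T-DM1 and 1.99 ± 0.289 under mobocertinib. Bcl6 rose by 2.31 ± 0.307, 2.40 ± 0.308, 1.84 ± 0.301 and 2.32 ± 0.307 in the same 4 groups, so that the combination came first for this gene. Insr rose by 2.33 ± 0.283 in the resistant nodules and by 1.58 ± 0.274 under T-DM1, its highest and lowest values.

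Foxo1 rose by 2.04 ± 0.252 in the resistant nodules and by 1.504 to 1.55 in the 3 drug groups. Foxo4 rose by 1.93 ± 0.294 in the resistant nodules, and by 0.80 ± 0.281 under T-DM1 (adjusted p = 0.0458), where the call was lost without vehicle 1 or 2 or without T-DM1 1 or 3. Irs2 rose by 1.98 ± 0.341 in the resistant nodules and by 1.21 ± 0.330 under T-DM1 (adjusted p = 0.0153), where the call was lost without either vehicle library. Sesn3 rose by 1.88 ± 0.342 in the resistant nodules and by 1.66 to 1.78 in the drug groups. Leaving out vehicle 1 or vehicle 2, 8 of the genes were still called in the resistant, combination and mobocertinib groups, and 5 under T-DM1; the lone vehicle library is then assumed to vary like the other groups.

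Ccng2 and Pik3ip1 did not pass against vehicle. The log2 fold change of Ccng2 was 0.50 ± 0.247 in the resistant nodules (edgeR adjusted p = 0.12), 0.24 ± 0.245 in the combination (adjusted p = 0.46), −0.12 ± 0.243 under T-DM1 (adjusted p = 0.735) and 0.54 ± 0.247 under mobocertinib (adjusted p = 0.108). For Pik3ip1 it was −0.36 ± 0.349 in the resistant nodules (adjusted p = 0.431), 0.83 ± 0.359 in the combination (adjusted p = 0.0905), −0.10 ± 0.350 under T-DM1 (adjusted p = 0.845) and 0.68 ± 0.357 under mobocertinib (adjusted p = 0.16).

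Transcript length moved with the changes against vehicle. Insr, Sesn3, Foxo1, Foxo3 and Irs2 have longest transcripts of 9355, 9125, 8665, 6848 and 6323 bases, which is longer than 90.0% to 97.3% of coding genes. Ccng2 has 4537, Bcl6 3933, Pdk4 3484, Foxo4 3162 and Pik3ip1 2573 bases. Of all tested coding genes over 5000 bases, 54.3% were called higher in the resistant nodules, 42% in the combination, 39.1% under T-DM1 and 40.7% under mobocertinib, with medians of 1.36, 1.02, 1.03 and 1.01. Of coding genes under 1000 bases, 62.7%, 59.6%, 53.5% and 55.9% were called lower in these groups.

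**Figure D2:**
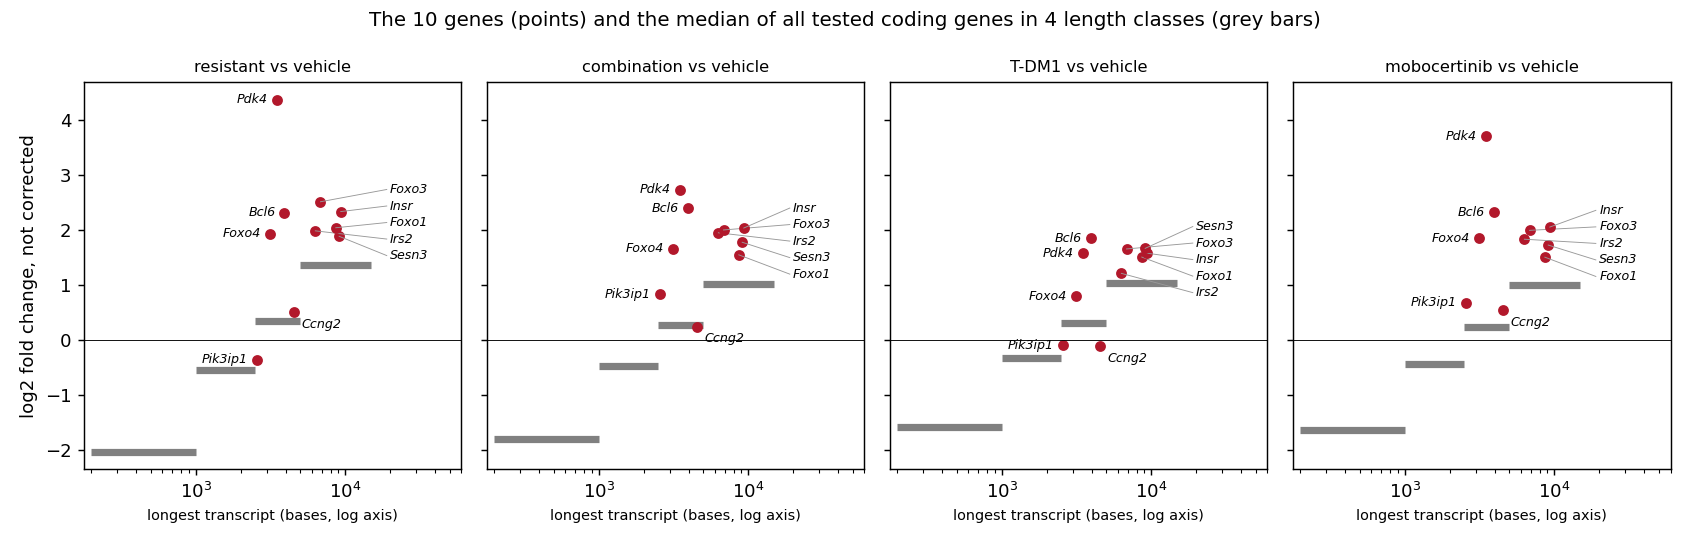
Log2 fold change against vehicle (y axis, not corrected for length) of the 10 genes as points against their longest transcript (x axis, bases, log scale), with grey bars for the median of all tested coding genes in 4 length classes with limits at 1000, 2500 and 5000 bases, the outer classes being open. The bar over 5000 bases stands at 1.36 in the resistant nodules and at 1.01 to 1.03 in the drug groups, and Insr, Sesn3, Foxo1, Foxo3 and Irs2 lie above it, while Pdk4, Bcl6 and Foxo4 lie above the bar of the class from 2500 to 5000 bases.

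After a correction of each library for transcript length and GC content, 4 of the 10 genes were called higher in the resistant nodules (Foxo3, Foxo4, Bcl6 and Pdk4), 5 in the combination (Foxo4, Insr, Irs2, Bcl6 and Pdk4), 1 under T-DM1 (Bcl6) and 4 under mobocertinib (Foxo4, Insr, Bcl6 and Pdk4). Over all genes, 12%, 9.88%, 7.79% and 9.29% were called higher in these groups after correction. Pdk4 kept log2 fold changes of 4.05 ± 0.626, 2.56 ± 0.584 and 3.53 ± 0.610 in the resistant, combination and mobocertinib nodules, and Bcl6 of 1.76 ± 0.284, 1.90 ± 0.286, 1.27 ± 0.279 and 1.86 ± 0.285 in the 4 groups. Foxo1 fell short of the threshold in all 4, with corrected values of 0.43 ± 0.203 in the resistant nodules, 0.29 ± 0.202 in the combination, 0.20 ± 0.202 under T-DM1 and 0.27 ± 0.202 under mobocertinib. Sesn3 likewise did not pass, at 0.22 ± 0.294, 0.61 ± 0.298, 0.46 ± 0.296 and 0.57 ± 0.297. In the resistant nodules Insr (0.67 ± 0.241, adjusted p = 0.0514) and Irs2 (0.71 ± 0.256, adjusted p = 0.0509) were just short of it.

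**Figure D3:**
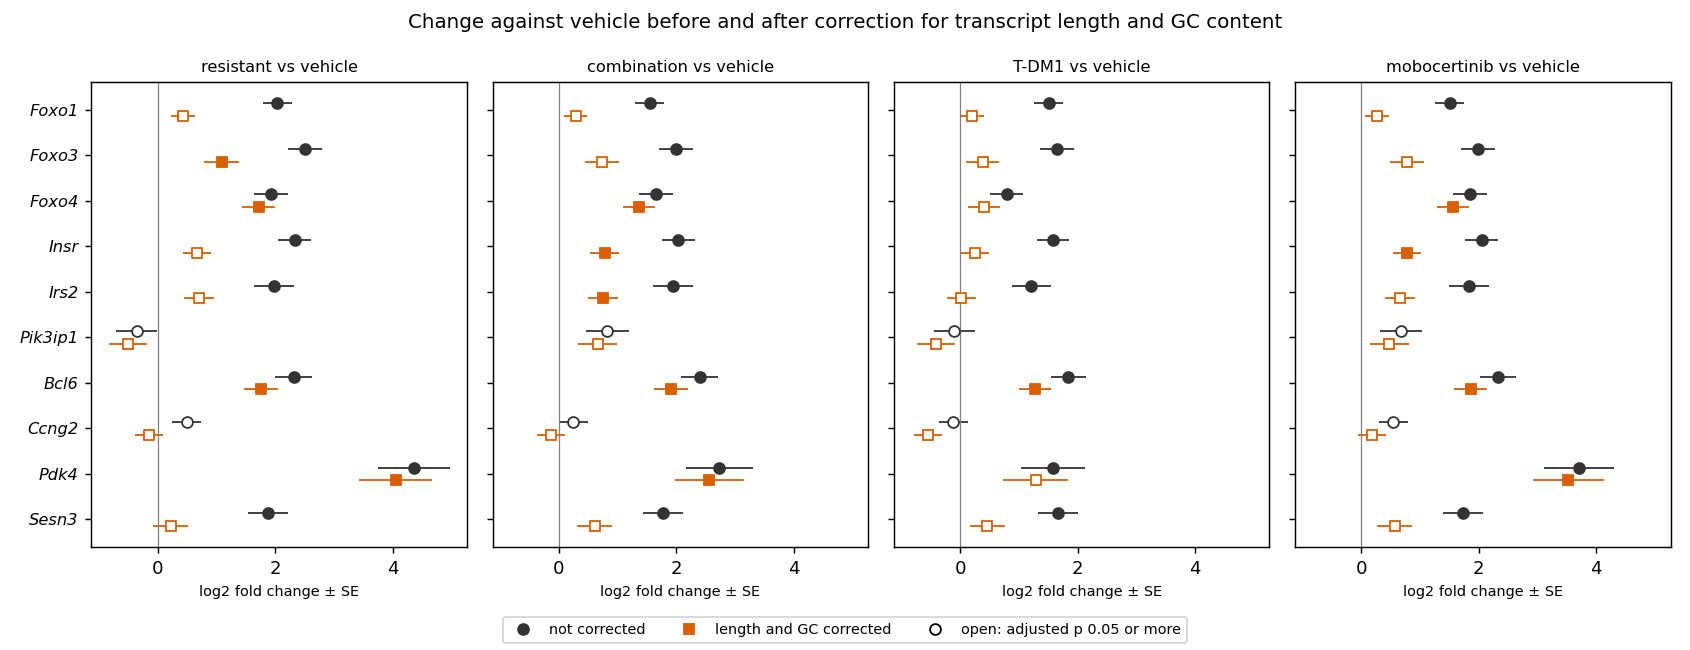
Log2 fold change ± SE against vehicle for the 10 genes in the resistant, combination, T-DM1 and mobocertinib nodules, without correction (circles) and corrected for transcript length and GC content (squares), with open symbols where the adjusted p was 0.05 or more. Among the 8 genes called without correction, Pdk4, Foxo4 and Bcl6 shift least with it, and Foxo1, Foxo3, Insr, Irs2 and Sesn3 shift further towards 0.

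Some markers of other cells also differed from vehicle. Over all genes, 22%, 17.6%, 16.7% and 16.8% were called higher in the resistant, combination, T-DM1 and mobocertinib nodules, and 19%, 17.4%, 14.9% and 16.1% lower. After the length and GC correction, 12%, 9.88%, 7.79% and 9.29% were higher and 19.3%, 15.7%, 16.5% and 15% lower. Of 12 endothelial markers, 9 were higher in each of the 4 comparisons, and Egfl7 was lower in the resistant nodules. After the length and GC correction 7 were higher in the resistant nodules, 5 in the combination, 3 under T-DM1 and 5 under mobocertinib. Of 8 macrophage markers, 3 were lower in the resistant nodules, 4 in the combination, 4 under T-DM1 and 3 under mobocertinib. Of 6 neutrophil markers, 4 were lower in the resistant nodules, 1 in the combination, 2 under T-DM1 and 2 under mobocertinib, and their sum was 14.3 to 279 CPM in the libraries of these groups and 454 to 573 CPM in vehicle. S100a8 and S100a9 made up most of the vehicle sum, with means of 272 and 202 CPM. Retnlg and Ly6g also had their highest mean in vehicle. Csf3r (19.2 CPM) and Cxcr2 (9.07 CPM) in vehicle lay within the other group means (10.9 to 26.6 CPM and 7.05 to 12.3 CPM). Of 7 fibroblast markers, 4 were higher in the resistant nodules and 1 in each other group. Their sums were 378 to 3588 CPM in the libraries of these groups and 293 to 299.6 CPM in vehicle. Resistant 1 had the 3588 CPM, while resistant 2 and 3 had 528 and 378 CPM. After the length and GC correction, 0 fibroblast markers were called in any of the 4 groups. Lower macrophage markers then numbered 4, 3, 2 and 2 in the resistant, combination, T-DM1 and mobocertinib nodules, and lower neutrophil markers 2, 0, 1 and 0. Without correction, 1 of 9 T cell markers was higher in each group. Of 7 B cell markers, 1 was higher in each group and 1 was lower under mobocertinib. Of 10 markers of lung epithelium and adenocarcinoma, 1 was higher and 1 lower in each group. The part of these markers in the values of the 10 genes was not tested.

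With vehicle left aside, the 4 other groups were compared in 6 pairs. In none of them was any of the 10 genes called by edgeR, and the same holds when the vehicle libraries are left out of the fit. Few of all genes were called either, with 1 gene of 17933 called in resistant against mobocertinib (0.00558%), 1 in resistant against combination (0.00558%), 5 in T-DM1 against mobocertinib (0.0279%), and 0 in the other 3 pairs. The test of any difference among the 4 groups called 0 of the 10 and 5 genes in all (0.0279%).

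**Figure D4:**
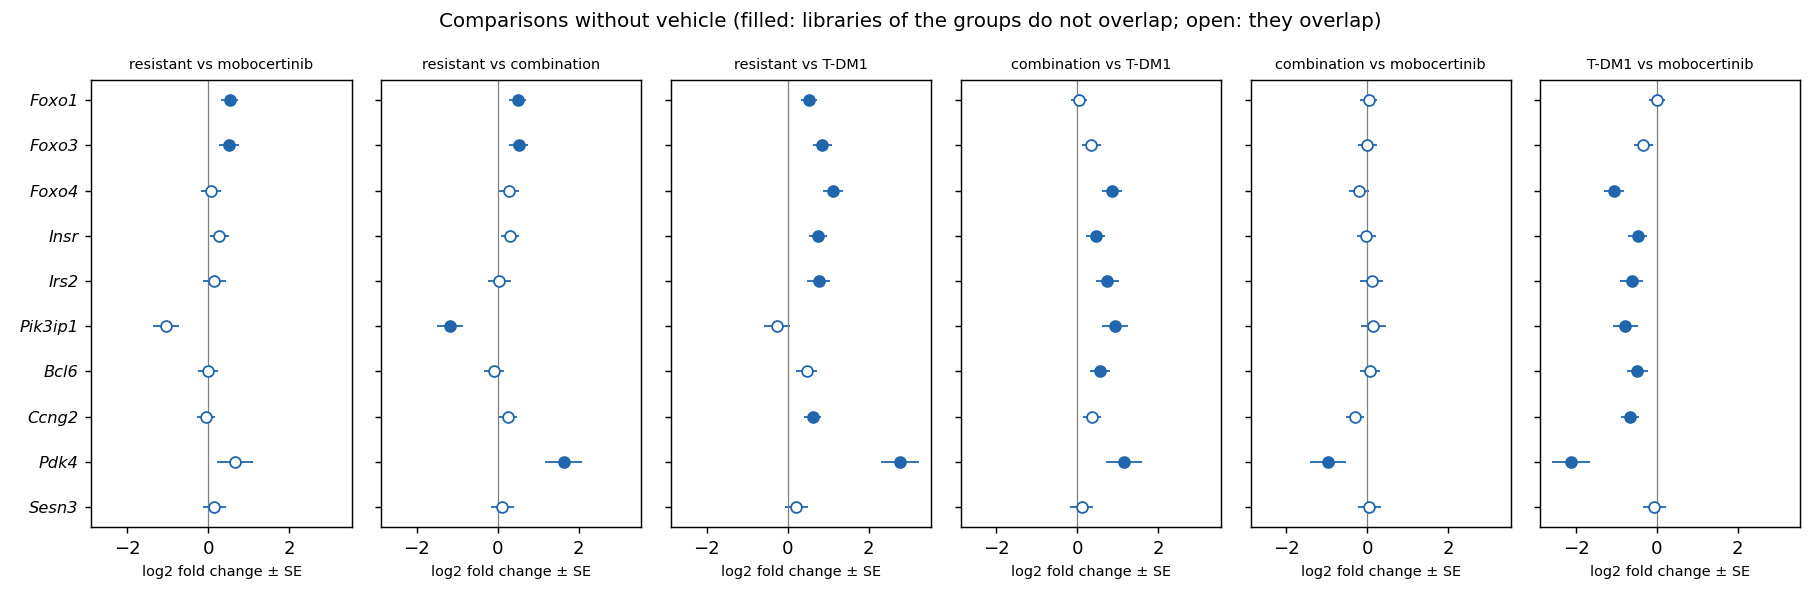
Log2 fold change ± SE of the 10 genes in the 6 comparisons without vehicle, filled where no library of one group overlaps with the other. Resistant against T-DM1 has 7 filled points above 0 and T-DM1 against mobocertinib has 7 below 0, while combination against mobocertinib has 1, Pdk4.

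T-DM1 against mobocertinib, the single drugs, showed lower values of several of the genes under T-DM1. For 7 of the 10 genes, Foxo4, Insr, Irs2, Pik3ip1, Bcl6, Ccng2 and Pdk4, all T-DM1 libraries were below all mobocertinib libraries, against 9.32% of all genes. Of the 10, 5 had an unadjusted p below 0.05 and a lower value, against 3.45% of all genes. The median log2 fold change was −0.55, against 0.01 over all genes. Pdk4 averaged 12.5 ± 8.40 CPM under T-DM1 and 54.5 ± 16.1 CPM under mobocertinib, with a log2 fold change of −2.13 ± 0.462 (edgeR adjusted p = 0.157). Foxo4 averaged 29.8 ± 6.93 CPM under T-DM1 and 61.8 ± 9.13 CPM under mobocertinib, with −1.05 ± 0.246 (adjusted p = 0.189). DESeq2 called Foxo4 (−1.04, adjusted p = 0.014) and Pdk4 (−2.10, adjusted p = 0.00251) in this pair, 2 of the 10 genes against 2.39% of all genes, and limma-voom called 0 of the 10.

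Foxo1, Foxo3 and Sesn3 had overlapping libraries in this pair. Foxo1 averaged 49.6 ± 2.96 CPM under T-DM1 and 49.5 ± 3.08 CPM under mobocertinib, and Sesn3 averaged 77.3 ± 8.02 CPM and 80.6 ± 22.5 CPM. Their log2 fold changes were 0.00 ± 0.208 and −0.06 ± 0.284, and that of Foxo3 was −0.34 ± 0.239 (adjusted p = 0.721).

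In resistant against T-DM1, for 7 of the 10 genes, all but Pik3ip1, Bcl6 and Sesn3, each resistant library was above each T-DM1 library, against 8.13% of all genes, and the same 7 had an unadjusted p below 0.05, against 6.71% of all genes higher. Pdk4 averaged 85.8 ± 36.0 CPM in resistant and 12.5 ± 8.40 CPM in T-DM1 nodules, a log2 fold change of 2.78 ± 0.473 that did not pass edgeR's threshold (adjusted p = 0.0992). Without T-DM1 1 it was 3.47 and passed (adjusted p = 0.0481). The difference of Foxo4 was 1.13 ± 0.246 (adjusted p = 0.144), and that of Foxo3 was 0.86 ± 0.240 (adjusted p = 0.206). DESeq2 called these 3 genes, against 2.82% of all genes, and limma-voom called 0 of the 10. Foxo1, Insr, Irs2 and Ccng2 differed by 0.53, 0.755, 0.77 and 0.62. Corrected for length and GC content, these values were 0.22, 0.41, 0.68 and 0.40. Foxo3, Foxo4 and Pdk4 were then at 0.71, 1.31 and 2.76. The median of coding genes over 5000 bases was 0.34 before and 0.06 after correction. The part of transcript length in this pair was not tested further.

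Resistant against mobocertinib sets nodules with acquired resistance to the inhibitor against the mobocertinib group. The median of the 10 genes was 0.15, against 0.07 over all genes, and 3 of the 10 had an unadjusted p below 0.05, against 7.77% of all genes. Foxo1 was above mobocertinib in all 3 resistant libraries, at 71.6 ± 3.05 CPM in resistant and 49.5 ± 3.08 CPM in mobocertinib nodules (0.53 ± 0.208, adjusted p = 0.622). Foxo3 was also above in all libraries (0.52 ± 0.239, adjusted p = 0.622), and 4.33% of all genes were so. With the correction for length and GC content, Foxo1 was at 0.16 ± 0.178 and Foxo3 at 0.32 ± 0.251, while the median of coding genes over 5000 bases was 0.34 before and 0.00 after correction. Pik3ip1 averaged 20.7 ± 8.71 CPM in resistant and 42.3 ± 12.8 CPM in mobocertinib nodules (−1.03 ± 0.316, adjusted p = 0.622), with libraries that overlapped. DESeq2 and limma-voom called 0 of the 10.

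Combination against mobocertinib gave the smallest median of the 6 pairs, at 0.02 in log2 fold change, against −0.01 over all genes. Of the 10, 1 gene, Pdk4, had an unadjusted p below 0.05, against 1.46% of all genes. Pdk4 averaged 27.7 ± 5.47 CPM in the combination and 54.5 ± 16.1 CPM under mobocertinib (−0.97 ± 0.446, adjusted p = 1), and all 3 combination libraries were below all 3 mobocertinib libraries, as in 3.29% of all genes. No other gene of the 10 had groups without overlap, and edgeR, DESeq2 and limma-voom called 0 of the 10.

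Combination against T-DM1 gave higher values for 6 genes in all libraries, Foxo4, Insr, Irs2, Pik3ip1, Bcl6 and Pdk4, against 8.41% of all genes. Of the 10, 5 had an unadjusted p below 0.05 and a higher value, against 1.64% of all genes. Pik3ip1 averaged 47.0 ± 1.30 CPM in the combination and 24.7 ± 3.91 CPM under T-DM1, a log2 fold change of 0.93 ± 0.315 (adjusted p = 0.901), and Foxo4 differed by 0.86 ± 0.245 (adjusted p = 0.76). DESeq2 and limma-voom called 0 of the 10.

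In resistant against combination, Foxo1, Foxo3 and Pdk4 were higher in all resistant libraries, against 6.23% of all genes, and Pik3ip1 was lower in all of them, against 6.52%. Of the 10, 3 had an unadjusted p below 0.05, against 8.3% of all genes. Pdk4 averaged 85.8 ± 36.0 CPM in resistant and 27.7 ± 5.47 CPM in combination nodules (1.63 ± 0.453, adjusted p = 0.596). Pik3ip1 averaged 20.7 ± 8.71 CPM and 47.0 ± 1.30 CPM (−1.18 ± 0.317, adjusted p = 0.596). DESeq2 and limma-voom called 0 of the 10. Foxo1 and Foxo3 differed by 0.49 and 0.51. Corrected for length and GC content, Foxo1, Foxo3, Pdk4 and Pik3ip1 were at 0.14, 0.35, 1.49 and −1.17. The median of coding genes over 5000 bases was 0.33 before and −0.01 after correction. The part of transcript length in this pair was not tested further.

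Over the 12 libraries other than vehicle, the share of the variance of log2 CPM that lay between the 4 groups was 86.4% for Foxo1, 83.3% for Pdk4, 79.9% for Foxo4, 73.7% for Pik3ip1 and 63.5% for Foxo3. It was 61.5% for Ccng2, 56.7% for Insr, 53.9% for Bcl6, 48.0% for Irs2 and 3.35% for Sesn3. With 3 libraries per group, part of such a share arises without any group difference, and shares over all genes were not computed. In the test of any difference among these groups, 6 of the 10 genes had an unadjusted p below 0.05, against 9.21% of all genes, and the adjusted p was lowest for Pdk4 (edgeR, 0.149) and Foxo4 (0.279). DESeq2 called both genes in this test, against 2.79% of all genes, and limma-voom called 0 of the 10. Ordered by mean level, the resistant nodules came first for Foxo1, Foxo3, Foxo4, Insr, Irs2, Pdk4 and Sesn3, the combination for Bcl6 and Pik3ip1, and mobocertinib for Ccng2. Of all neighbouring groups in these orders, only the step to vehicle at the bottom passed the edgeR threshold, and this for the 8 genes named above.

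Pdk4 is abundant in heart and skeletal muscle, and markers of these tissues varied between libraries of one group. Their sum was 51.9, 400 and 473 CPM in the resistant nodules, 51.5, 6.62 and 11.3 CPM in the combination, 543, 6.01 and 14.4 CPM under T-DM1, 9.17, 140 and 875 CPM under mobocertinib, and 83.5 and 18.1 CPM under vehicle. The libraries with the highest Pdk4 of the T-DM1 (22.0 CPM) and mobocertinib (73.0 CPM) groups had the highest muscle sums of their groups. In the resistant (127 CPM) and vehicle (5.57 CPM) groups, the library with the highest Pdk4 had the lowest sum. In the combination (33.9 CPM) it had the middle sum. The T-DM1 library with the highest Pdk4 also had 305 CPM of adipocyte markers, where all other libraries had at most 4.84 CPM. Of the 8 muscle markers, 0 were called in any comparison with vehicle. Among the adipocyte markers, Adipoq, Plin1 and Lep had 0 counts in vehicle, and Lep had 0 in the resistant, combination and mobocertinib groups. The part of muscle and fat in the values of Pdk4 was not tested.

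**Figure D5:**
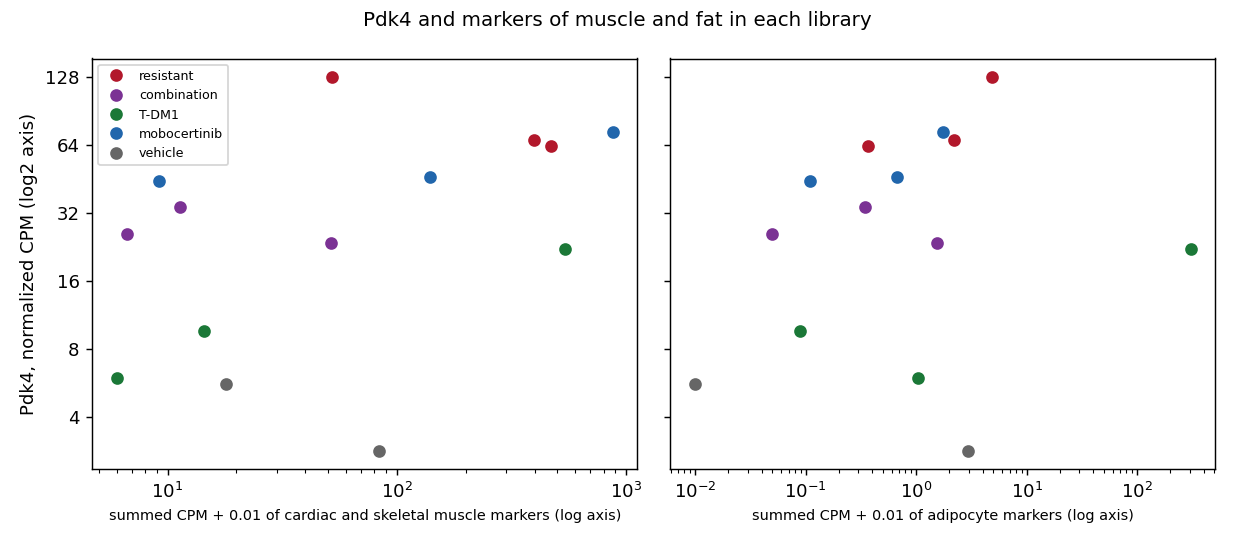
Pdk4 in normalized CPM (log2 axis) against the summed CPM plus 0.01 of cardiac and skeletal muscle markers (left) and of adipocyte markers (right, log axes), 1 point per library, coloured by group. The resistant libraries lie at 62.9 to 127 CPM of Pdk4 over muscle sums of 51.9 to 473 CPM, and 1 T-DM1 library stands apart at 305 CPM of adipocyte markers.

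To compare the genes with each other, levels per transcript length were taken from the authors' TPM values. Foxo3 came first in the resistant, combination, T-DM1 and mobocertinib groups, at 45.0 ± 10.1, 31.5 ± 9.15, 23.1 ± 5.27 and 29.1 ± 6.15 TPM (SD, n = 3 each), whereas Ccng2 came first in vehicle at 5.61 ± 0.849 TPM (n = 2). Pdk4 was second in the resistant nodules at 38.5 ± 18.4 TPM, eighth in the combination at 11.6 ± 2.17 TPM, last under T-DM1 at 4.97 ± 2.99 TPM, between Pik3ip1 and Bcl6 under mobocertinib at 22.0 ± 8.82 TPM and last in vehicle at 0.465 ± 0.0495 TPM. Foxo1 was last in the resistant, combination and mobocertinib groups, at 12.3 ± 0.532, 8.53 ± 1.57 and 7.86 ± 1.54 TPM. On the TPM scale all 10 genes were called higher than in vehicle in all 4 groups by limma-trend, Ccng2 and Pik3ip1 included. The TPM values were not scaled with the TMM factors, which were lowest in the vehicle libraries. On that scale the median over all genes was itself 1.27, 1.18, 1.17 and 1.11 in the resistant, combination, T-DM1 and mobocertinib groups, and 92.6%, 94.4%, 94.2% and 94.7% of called genes were higher, against 53.7%, 50.4%, 52.8% and 51.1% from the counts.

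Adding T-DM1 to mobocertinib was set against giving T-DM1 alone, as a difference of differences: the log2 change of combination over mobocertinib less that of T-DM1 over vehicle. Of the 10 genes, 6 were called below 0 by edgeR, against 6.41% of all genes (5.82% were called above 0), and these were Foxo1, Foxo3, Insr, Bcl6, Pdk4 and Sesn3. A gene raised alike over vehicle in each drug group also gives a value below 0 here. All of these genes were called higher than vehicle in each drug group, so the calls restate in part those against vehicle. For Foxo1, T-DM1 went with a log2 fold change of 0.04 ± 0.208 when set against mobocertinib in the combination and of 1.51 ± 0.246 when set alone against vehicle. For Pdk4 the values were −0.97 ± 0.446 in the presence of mobocertinib and 1.58 ± 0.541 without it. Corrected for length and GC content, 0 of the 10 were called, against 5.3% of all genes in either direction. Without vehicle 2 also 0 were called, and without vehicle 1, 4 were (Foxo1, Foxo3, Insr and Bcl6). The call of Pdk4 was also lost without mobocertinib 3, T-DM1 1 or 3, or any of the combination libraries, and that of Sesn3 without T-DM1 3 or combination 2.

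The genes around FOXO in the pathway were read from 3 further lists, also chosen with earlier results of these data known. Of 32 genes of PI3K and AKT signalling, 18 rose and 2 fell in the resistant nodules, 18 rose in the combination, 12 rose under T-DM1, and 16 rose and 1 fell under mobocertinib, with medians of 1.06, 0.91, 0.62 and 0.77. Over all tested genes, 22%, 17.6%, 16.7% and 16.8% were called higher in these groups, and the medians were 0.18, 0.08, 0.18 and 0.09. After the length and GC correction 6, 8, 4 and 6 of the list were higher and 5, 1, 1 and 1 lower, with medians of −0.14, −0.08, −0.30 and −0.11, against −0.08, −0.10, −0.14 and −0.10 over all genes. Of all genes, 12%, 9.88%, 7.79% and 9.29% were then higher and 19.3%, 15.7%, 16.5% and 15% lower. With 1 library left out at a time, the genes called in either direction numbered 12 to 19 in the resistant nodules, 11 to 16 in the combination, 8 to 12 under T-DM1 and 10 to 15 under mobocertinib, and the lowest counts came without vehicle 2, under T-DM1 also without T-DM1 3. Phlpp1, a phosphatase that acts on AKT, averaged 24.7 ± 1.77 CPM in the resistant nodules and 4.49 ± 0.358 CPM in vehicle, a log2 fold change of 2.46 ± 0.328 (adjusted p = 0.000167) and 1.25 after correction. Phlpp2, its relative, rose by 3.30 ± 0.446 in the resistant nodules and by 3.11 ± 0.442 in the combination. Gsk3b, a kinase that AKT inhibits, rose in all 4 groups (1.93 to 2.34), Pdpk1, the kinase that activates AKT, rose by 2.46 ± 0.416 in the resistant nodules, and Igf1r, the receptor for IGF ligands, by 3.15 ± 0.556 in the combination.

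Of 32 other FOXO targets tested, 11 rose in the resistant nodules, 10 in the combination, 7 under T-DM1 and 11 under mobocertinib, and none fell, with medians of 0.82, 0.66, 0.31 and 0.91, beside the all-gene shares and medians just given. After correction 5, 5, 1 and 6 were higher and 2, 1, 0 and 1 lower, with medians of 0.49, 0.31, 0.07 and 0.56, where 12%, 9.88%, 7.79% and 9.29% of all genes were higher. With 1 library left out at a time, 7 to 11 were called in the resistant nodules, 6 to 9 in the combination, 2 to 8 under T-DM1 and 8 to 12 under mobocertinib. Without vehicle 2 the count was 7 in the resistant nodules and 2 under T-DM1, without T-DM1 3 it was 4 under T-DM1, and without vehicle 1 it was 6 in the combination. Bcl2l11, which encodes the pro-apoptotic protein BIM, averaged 43.5 ± 2.21 CPM in the combination, 37.0 ± 1.69 CPM under mobocertinib and 11.6 ± 4.04 CPM in vehicle. It rose by 1.91 ± 0.319 and 1.68 ± 0.316 in these drug groups, and was still called there after correction (1.14 and 0.93). In the resistant nodules it rose by 1.49 ± 0.313, a call lost after correction (0.50, edgeR adjusted p = 0.1855). Erbb3, the partner of HER2 that couples it to PI3K, rose by 2.42 ± 0.530 in the resistant nodules, 2.48 ± 0.531 in the combination, 1.94 ± 0.517 under T-DM1 and 2.51 ± 0.532 under mobocertinib, though in none of the 4 after correction. Ppargc1a, a coactivator of mitochondrial genes, rose by 2.41 ± 0.717 to 3.67 ± 0.755 across the 4 groups, though not under T-DM1 after correction (1.58, adjusted p = 0.069). Rbl2, a pocket protein of the cell cycle, rose by 1.47 ± 0.231 in the resistant nodules, and did not pass after correction (0.47, adjusted p = 0.192). Fbxo32, a ubiquitin ligase of muscle wasting, rose by 2.84 ± 0.614 under T-DM1, where the libraries averaged 153 ± 144 CPM against 21.3 ± 5.74 CPM in vehicle, and did not pass after correction (1.67, adjusted p = 0.0671). Tnfsf10, a death ligand, rose by 1.57 ± 0.473 in the same group.

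Of the 7 genes of 14-3-3 proteins, Ywhaq fell in the combination by 0.97 on the log2 scale (62.3 ± 5.93 CPM against 122 ± 19.1 CPM in vehicle) and under mobocertinib by 0.87, and Ywhag rose under T-DM1 by 1.46 ± 0.348. After correction Ywhaq passed neither in the combination (−0.74, adjusted p = 0.0531) nor under mobocertinib (−0.65, adjusted p = 0.082), and Ywhag passed under T-DM1 (1.01). With 1 library left out at a time, 0 to 1 of the 7 were called in the combination and under mobocertinib and 0 to 2 under T-DM1 and in the resistant nodules. Of all genes, 17.4% were called lower in the combination and 16.1% under mobocertinib, and 16.7% were called higher under T-DM1. The 1 of 7 genes called in each of these groups is near those shares. None of the 7 passed in the resistant nodules by edgeR. In the 6 pairs without vehicle, edgeR called 0 genes of these 3 lists. The values with the smallest p there included Irs1, another insulin receptor adaptor, which shares 30.9% of its exon bases with a gene on the opposite strand, at 27.9 ± 6.31 CPM under T-DM1 and 9.83 ± 2.35 CPM under mobocertinib (1.504 ± 0.391, adjusted p = 0.218), and Sesn1, a second sestrin, at 54.6 ± 32.3 CPM in resistant and 16.7 ± 0.685 CPM in T-DM1 nodules (1.71 ± 0.388, adjusted p = 0.154). Txnip, an inhibitor of glucose uptake, averaged 599 ± 140 CPM under T-DM1 and 1294 ± 397 CPM under mobocertinib (−1.11 ± 0.321, adjusted p = 0.251). Sfn, the 14-3-3 sigma gene, averaged 33.0 ± 20.0 CPM in resistant and 211 ± 49.0 CPM in T-DM1 nodules (−2.68 ± 0.598, adjusted p = 0.154).

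The genes whose pattern was most like the mean of the 10 over the 12 libraries other than vehicle, by Pearson's r among 12177 genes, were Amer1 (r = 0.925), Rbl2 (0.918), Casc3 (0.911), Ubn1 (0.909), Tbcel (0.907) and Herc1 (0.901). The points share libraries and their scaling, and no test was made. Amer1 averaged 24.7 ± 2.73 CPM in the resistant nodules, 19.1 ± 1.11 CPM in the combination, 12.04 ± 2.01 CPM under T-DM1, 22.0 ± 4.197 CPM under mobocertinib and 6.98 ± 0.110 CPM in vehicle, with T-DM1 the lowest of the groups other than vehicle. Rbl2, which is also on the list of other FOXO targets and shares 21.0% of its exon bases with other genes, averaged 64.0 ± 3.90, 54.2 ± 4.01, 38.0 ± 4.92, 53.5 ± 5.15 and 23.1 ± 7.42 CPM in these groups, with the same group lowest after vehicle.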

How the data were processed

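RNA was sequenced from 14 lung tumor nodule libraries in 5 groups. The authors deposited a table of counts per gene, raw and whole (55291 genes, 24822 without any count), and a table of TPM (47606 genes). STAR, RSEM and the mm10 build are named per the submitters' processing notes, while what each tool did, the annotation counted on and whether strand was used were not stated there. From the counts, 17933 genes passed edgeR's expression filter, and 1 quasi-likelihood model with robust dispersion and TMM factors was fitted to all 14 libraries (edgeR 4.0.16, R 4.3.3, 9 residual degrees of freedom). Genes were called at a Benjamini-Hochberg adjusted p below 0.05 over all genes tested, and the SE is the log2 fold change divided by the root of F. The edgeR procedure was also run on simulated counts in which all libraries had the same mean levels, save for changed genes in a single group. These counts lacked the composition difference of the vehicle libraries, so the run does not cover that setting. Totals of 19.3 to 31.3 M counts set the counting precision.

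Alternatives were RLE and upper-quartile factors, no expression filter, DESeq2 1.42.0, limma-voom (limma 3.58.1), limma-trend on log2(TPM + 1) of the deposited TPM values (TPM of at least 1 in 2 libraries), only the libraries compared, leaving out each library in turn, and offsets smoothed on transcript length and GC content (mgcv 1.9.3, 17563 genes). A fit without both vehicle libraries was added after seeing the data. Lengths and positions came from the GENCODE annotation of mm10. The members and lists were chosen with earlier results of these data known. All members are named, and from each list up to 4 called genes of smallest p in a comparison could be named, or 2 where none was called. The 6 genes of most like pattern were taken by Pearson's r with the mean centred log2 CPM of the members, among genes with a mean log2 CPM of at least 1 and a name that is not that of a predicted gene. No pair of libraries of a group had identical values, and all differed by more than counting noise.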

Additional observations from a re-analysis of the deposited data

Results flagged for a closer look

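In the difference of differences (the log2 change of combination over mobocertinib less that of T-DM1 over vehicle), the change that went with T-DM1 differed between nodules with and without mobocertinib for 6 of the 10 genes, each by edgeR's test of that difference. All 6 were called higher than vehicle in each drug group. A gene raised alike over vehicle in each of them gives a value below 0 here, so these calls are not separate from those against vehicle. The value was −1.47 ± 0.318 for Foxo1 (SE, adjusted p = 0.0139), −1.65 ± 0.366 for Foxo3 (0.0151) and −1.77 ± 0.383 for Bcl6 (0.0137). It was −1.59 ± 0.352 for Insr (adjusted p = 0.0149), −2.55 ± 0.701 for Pdk4 (0.0346) and −1.61 ± 0.435 for Sesn3 (0.032). For Pdk4 the call was lost without any 1 of vehicle 1 or 2, mobocertinib 3, T-DM1 1 or 3, or combination 1, 2 or 3, with values of −1.93 to −3.22. For Sesn3 it was lost without vehicle 1 or 2, T-DM1 3 or combination 2, and for Foxo1, Foxo3, Insr and Bcl6 without vehicle 2. Coding genes over 5000 bases had a median of −1.004 in the same difference, and 18.8% of them were called lower. After correction for length and GC content the 6 values were −0.19, −0.42, −1.23, −0.26, −2.25 and −0.42 for Foxo1, Foxo3, Bcl6, Insr, Pdk4 and Sesn3, and none was called. The part of transcript length and of the vehicle libraries in these calls was not tested further.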

How the results depend on the processing

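No paired analysis was possible because the replicate numbers follow the order of deposit only. Under the correction for transcript length and GC content, 4 of the 10 genes were called in resistant, 5 in combination, 1 in T-DM1 and 4 in mobocertinib nodules against vehicle, and 0 in the difference of differences. Of all called genes, 38.4%, 38.7%, 32.1%, 38.2% and 74.8% were then higher, against 53.7%, 50.4%, 52.8%, 51.1% and 47.6% without it, and 92.6%, 94.4%, 94.2%, 94.7% and 3.88% by TPM. By TPM all 10 genes were called in the difference of differences, and 1 in resistant against T-DM1 (Pdk4). By TPM, 4 values passed the threshold with the opposite sign, those of Pik3ip1 in T-DM1 (1.54) and resistant (1.43) nodules against vehicle, of Ccng2 in T-DM1 nodules against vehicle (1.44), and of Pik3ip1 in the difference of differences (−1.25); none of the 4 was called from the counts. Values that passed in neither fit also changed sign, 14 of 110 under the length and GC correction, 4 of 110 by TPM and 42 of 670 with 1 library left out. Among these were Ccng2 in resistant (−0.15) and combination (−0.13) nodules against vehicle and Irs2 in the difference of differences (0.07) under the correction, and Pik3ip1 in resistant nodules against vehicle without vehicle 2 (0.21). Under RLE and upper-quartile factors, no filter, DESeq2, limma-voom and the compared libraries only, 2 to 5 of 110 did so. DESeq2 called 2 genes in T-DM1 against mobocertinib, 3 in resistant against T-DM1 and 2 in the test over 4 groups, where edgeR called 0. Without the expression filter, 1 gene (Pdk4) was called in resistant against T-DM1. Leaving out 1 library at a time gave 5 to 8 genes for T-DM1 against vehicle, 0 to 1 for resistant against T-DM1, 0 to 6 for the difference of differences, and 8 in each of the other comparisons with vehicle. In the T-DM1 comparison with vehicle, Foxo4 was also lost under RLE factors, and Foxo4 and Pdk4 under upper-quartile factors, limma-voom and the fit of the compared libraries only. Pik3ip1 in combination against vehicle was gained without the filter (1.03) and with the compared libraries only (0.86). Where not stated, the cause of a change was not tested. With 2 vehicle libraries, every comparison with vehicle rests on 2 values.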
